A study of Mus musculus with 10 samples.

Results

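Aminoacyl-tRNA synthetases join each amino acid to its tRNA, and the genes described here are those of the cytosolic and the mitochondrial enzymes. They were chosen by name, without use of their expression, though with earlier results of these data known. As nuclear genes that encode a synthetase, they number 36 of the 23005 genes with a symbol in the short-read files. Of these, 20 encode cytosolic enzymes and 16 encode enzymes that act in the mitochondrion. Each synthetase recognises its own tRNAs and activates the matching amino acid with ATP, and the charged tRNA is then carried to the ribosome by an elongation factor. Mitochondria translate the few proteins encoded in their own genome with a separate set of tRNAs and, for most amino acids, a separate synthetase, which is made in the cytosol and imported. Growing lymphocytes raise both translation systems, and several synthetase genes are known targets of ATF4, the transcription factor of the amino acid response.

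The study compared mature CD4 single-positive (CD4SP) thymocytes, committed to the helper lineage, with mature CD8 single-positive (CD8SP) thymocytes, committed to the cytotoxic lineage, and asked how the lineages differ in mRNA splicing. Cells came from C57BL/6 mice aged 6 to 8 weeks, with no treatment or genetic alteration named in the labels, and 2 to 3 thymi were pooled for a sample. Magnetic beads against the other coreceptor removed double-positive cells and the other lineage, and cell sorting then kept TCRβ-positive, CD24-negative cells that carried CD4 alone or CD8 alone. Each lineage had 1 long-read library and 4 short-read samples whose labels differ by sequencing lane, and the short-read values of a lineage stand in 1 pooled file. A gene therefore has 1 value per lineage with no replicate, so no SD, test or p-value can be given, and any difference is between these pools and not shown to be between lineages in general. In bulk RNA, fewer cells that express a gene and less of its RNA per cell cannot be told apart.

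The lineage genes followed the labels. Cd4 stood at 107.1 FPKM (fragments scaled to transcript length and to library size) in CD4SP and 1.69 in CD8SP, and Cd8b1 stood at 32.9 and 504.5. All 5 T cell markers were above 100 FPKM in both pools. Of the other thymus cell types, the immature thymocyte gene Rag1 was at 12.5 FPKM in CD4SP and at 4.12 in CD8SP, the summed level of 5 B cell markers was 0.679 and 5.51 FPKM with Cd79b alone above 1 FPKM, and that of the myeloid markers was 3.44 and 0.985. The B cell gene Cd79a, at 0 on gene FPKM, was at 7.05 in CD4SP and 0.248 in CD8SP on the exon-based value defined below, opposite to Cd79b. Proliferation genes were higher in CD8SP, with a summed level of 47.4 FPKM in CD4SP and at 124.9 in CD8SP over 6 genes, 5 of which passed the call defined below. Among all 9620 genes that reached 1 FPKM in at least 1 pool, the median log2 ratio of CD8SP over CD4SP was 0.22 and 65.6% were above 0, so values for the synthetase genes are read against that shift.

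Some sequences show where the synthetase transcripts differ in these data. Lysyl-tRNA synthetase is made for both compartments from 1 gene, Kars, through alternative inclusion of its second exon, and the long reads held both forms. The coding part of the first exon in the form without the second exon (chr8:112011210-112011268, minus strand, GRCm38) and the coding part of the second exon in the other form (chr8:112008207-112008352, minus strand) are shown 5′ to 3′, from the GENCODE M21 transcripts, with the start codon in capitals. The second stretch begins the import signal of the mitochondrial enzyme.
Kars without exon 2: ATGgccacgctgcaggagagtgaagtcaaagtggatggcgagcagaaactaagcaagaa
Kars with exon 2: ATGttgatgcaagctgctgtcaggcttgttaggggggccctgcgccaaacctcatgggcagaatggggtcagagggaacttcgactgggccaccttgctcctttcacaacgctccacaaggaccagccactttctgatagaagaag
The exon that differed most between the pools among annotated forms lies in the seryl-tRNA synthetase gene Sars (chr3:108427861-108427932, minus strand, GRCm38). It has 72 bases, a whole number of codons, and is shown in lower case throughout because no part of it is singled out.
Sars exon: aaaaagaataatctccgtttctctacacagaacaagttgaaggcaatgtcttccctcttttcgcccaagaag

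The cytosolic genes were expressed at a higher level than the mitochondrial ones in both pools. Their median was 11.4 FPKM in CD4SP and at 16.4 in CD8SP, with a range of 0 to 31.0 and of 5.22 to 35.4. The median of the mitochondrial genes was 3.28 and 3.88 FPKM, with a range of 1.01 to 19.2 and of 0.773 to 58.6. Paired by amino acid, the cytosolic gene was the higher in 14 of 17 pairs in CD4SP and in 15 of 17 in CD8SP. The median ratio of cytosolic to mitochondrial FPKM was 2.74 in CD4SP and 3.28 in CD8SP. It was highest for Eprs, the enzyme that charges both glutamate and proline, over the mitochondrial prolyl enzyme Pars2, at 18.7 and 27.8. Pars2 was near the floor there, at 1.01 and 0.773 FPKM. Exceptions included the cysteinyl pair, with Cars below Cars2 in both pools at ratios of 0.813 and 0.729. Lars over Lars2 was 0.271 in CD8SP. In CD4SP the leucyl pair counts as an exception because Lars is listed at 0, which can be a failed estimate. The isoleucyl pair was an exception in CD4SP, where Iars over Iars2 was 0.722 against 1.77 in CD8SP. On the exon-based value defined below, Iars was below Iars2 in both pools, at 0.635 and 0.658, and the cytosolic gene was the higher in 14 and 13 of the 17 pairs. Eprs over Pars2 was 11.36 and 11.12 on that value, and the highest ratio in CD8SP was Eprs over Ears2, at 11.38.

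By mean level the highest cytosolic genes were Dars (aspartyl), at 31.0 FPKM in CD4SP and at 35.4 in CD8SP, Rars (arginyl), at 16.3 and 32.6, and Farsb, the beta subunit of the phenylalanyl enzyme, at 14.9 and 29.4. Dars was highest in either pool, and the deposited intervals of its levels did not overlap. The lowest were Cars (cysteinyl), at 3.14 and 5.22 FPKM, Yars (tyrosyl), at 4.16 and 6.18, and Aars (alanyl), at 8.27 and 6.398. Mitochondrial levels were led by Lars2 (leucyl), at 19.2 and 58.6 FPKM, Iars2 (isoleucyl), at 10.04 and 9.70, and Rars2 (arginyl), at 6.07 and 8.01. Lowest were Pars2 (prolyl), at 1.01 and 0.773 FPKM, Wars2 (tryptophanyl), at 1.65 and 2.302, and Ears2 (glutamyl), at 3.06 and 2.24. Apart from Lars2 and Iars2, every mitochondrial gene was below 10 FPKM in both pools.

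**Figure D1:**
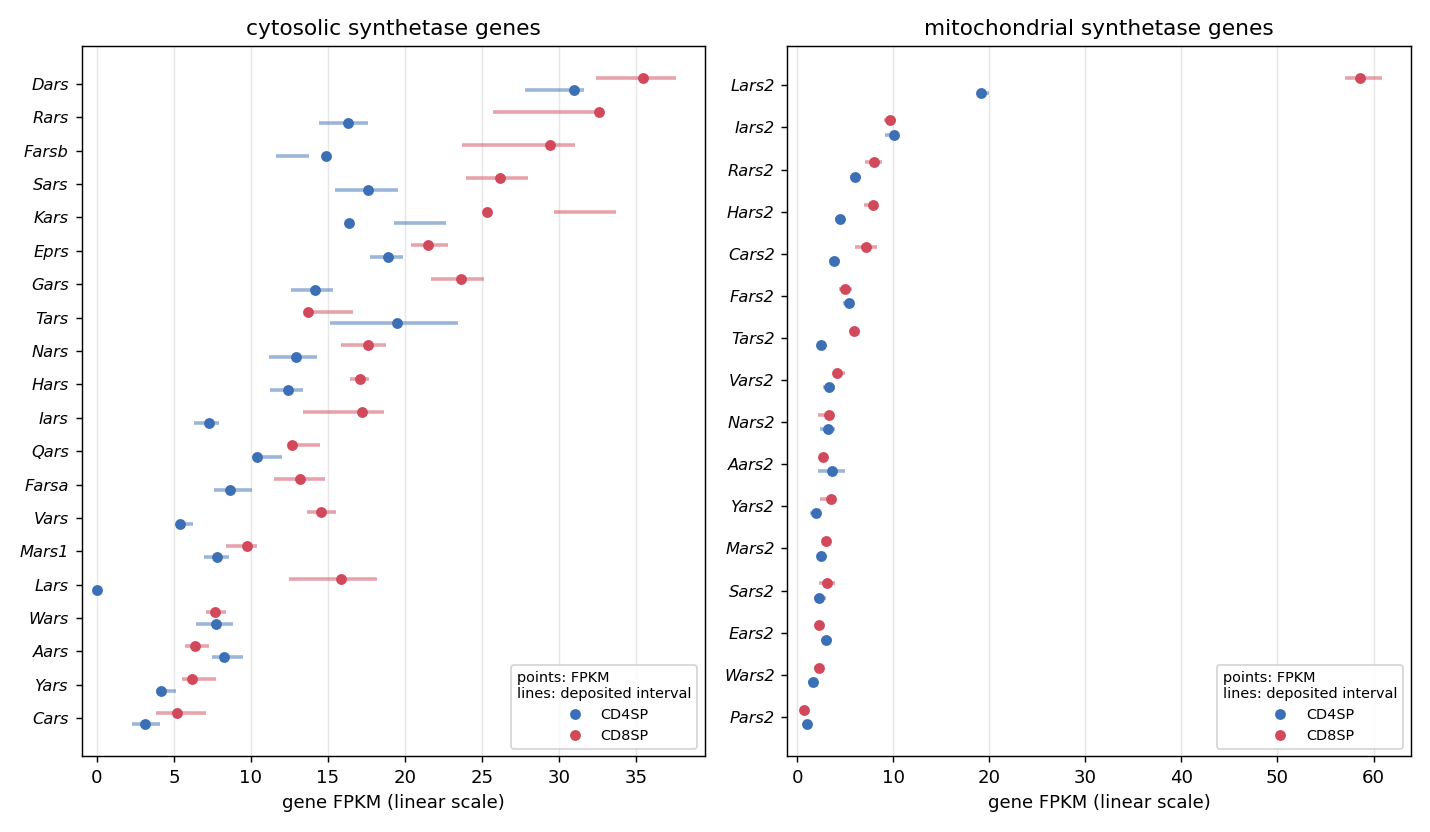
Gene FPKM on a linear axis of the 20 cytosolic (left) and 16 mitochondrial (right) synthetase genes in the pooled CD4SP (blue) and CD8SP (red) samples, ordered by mean level, with lines for the summed deposited intervals. Most cytosolic genes have the CD8SP point to the right of the CD4SP point, Lars is at 0 in CD4SP, and Lars2 stands apart at 58.6 FPKM in CD8SP.

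Cytosolic synthetase transcripts were mostly higher in CD8SP by modest ratios. The log2 ratio of CD8SP over CD4SP, taken after adding 0.1 FPKM to each value, was above 0 for 17 of 20 genes (85%), against 65.6% of all genes tested and 68.1% of the 5666 genes in the same range of mean FPKM. Its median was 0.56 against 0.22 for all genes tested, and 0.56 without Lars. The summed level of the 20 genes was 236.8 FPKM in CD4SP and at 351.0 in CD8SP. Without Lars, which is listed at 0 in CD4SP, the sums were 236.8 and 335.1 and 16 of 19 ratios were above 0. The deposited intervals were apart, with CD8SP higher, for 15 of 20 (75.0%), Lars among them, against 39.2% of all genes tested and 41.7% of those in the same range. Aars was the 1 gene with intervals apart and CD4SP higher, which 15.4% of all genes tested were.

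Mitochondrial synthetase transcripts lay closer to the background. The log2 ratio was above 0 for 11 of 16 genes (68.8%), with a median of 0.35. Intervals were apart with CD8SP higher for 6 of 16 (37.5%), namely Cars2, Hars2, Lars2, Rars2, Tars2 and Yars2, and for none with CD4SP higher. Among the 8854 genes in their range of mean FPKM, 37.5% had intervals apart with CD8SP higher and the median ratio was 0.21. The cytosolic and mitochondrial medians of 0.56 and 0.35 were not compared by a test, since genes of a list are not replicates.

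Few of the genes differed by a large ratio. The call asked for a level of 1 FPKM or more in the higher pool, a difference of at least 2-fold on the scale of the log2 ratio, and deposited intervals that do not overlap. In all, 5 of 36 (13.9%) were called, which is near the 14.8% of all genes tested. All 5 were higher in CD8SP, where the background is 10%, and 0 were higher in CD4SP, where it is 4.76%. The cytosolic genes called were Vars, Iars and Lars, and the mitochondrial ones were Lars2 and Tars2. Lars is at 0 in CD4SP, a value that can be a failed estimate, and without it 2 of 19 cytosolic genes (10.5%) were called, near the background. All 5 were also called after the ratios were centred on the median of all genes, where the call took 7.12% of genes toward CD8SP and 6.39% toward CD4SP.

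Gene FPKM sums the RefSeq transcripts of a gene and the spliced transcripts that Cufflinks assembled on it, and the assembled part differed between the pools. Each ratio was therefore also computed on RefSeq transcripts alone, and on an exon-based value, which weights each transcript of 200 bases or more by how much of the RefSeq exons it spans. On the exon-based value the cytosolic median was 0.40, with 19 of 20 above 0, and the mitochondrial median was 0.33, with 14 of 16 above 0, against 0.21 and 69.5% for all genes. Calls on that value were 2 of 20 cytosolic genes, Vars and Lars, and 0 of 16 mitochondrial ones, against 7.52% of all genes toward CD8SP and 3.40% toward CD4SP. Without Lars, 1 of 19 cytosolic genes (5.26%) was called on exons. On RefSeq transcripts alone the medians were 0.43 and 0.18, against 0.31 for all genes, and calls were 4 higher in CD8SP and 2 in CD4SP, against a background of 15.1% and 5.46%. The excess of the mitochondrial median over all genes thus changed sign on RefSeq transcripts alone.

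**Figure D2:**
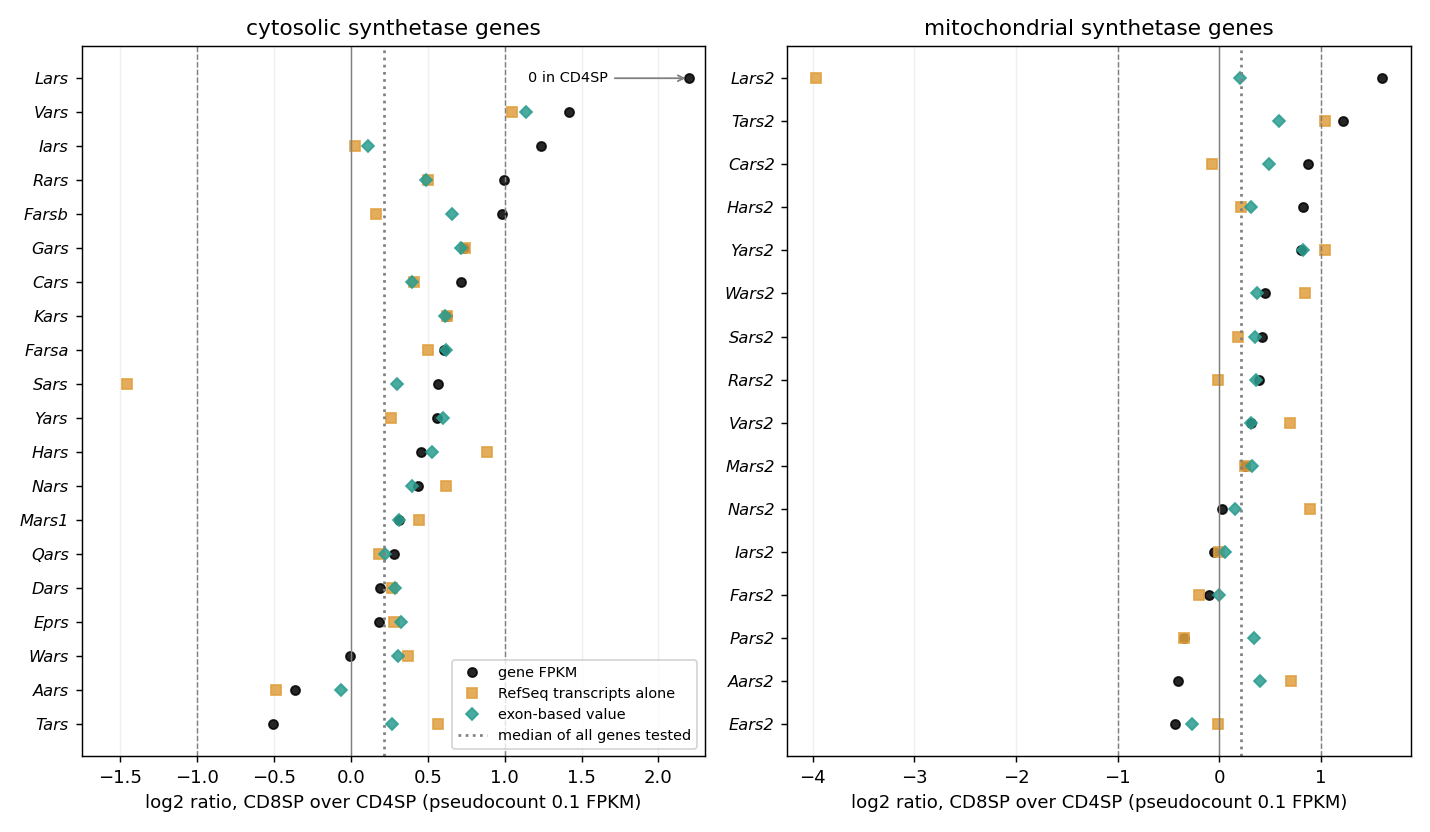
The log2 ratio of CD8SP over CD4SP for each synthetase gene from gene FPKM (black circles), RefSeq transcripts alone (orange squares) and the exon-based value (green diamonds), with dashed lines at 2-fold and a dotted line at the median of all genes tested. The 3 values lie close together for Gars and Kars but far apart for Lars2 and Sars; Lars, at 0 in CD4SP, is drawn at the right edge for gene FPKM only.

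Valyl-tRNA synthetase was higher in CD8SP however its transcripts were counted. Vars (chromosome 17, 35000907 to 35016329) stood at 5.38 FPKM in CD4SP (interval 5.44 to 6.24) and 14.6 in CD8SP (13.6 to 15.5), a 2.71-fold difference. The intervals do not overlap, although the CD4SP value lies just below its own interval. RefSeq transcripts alone gave 5.25 and 10.97 FPKM, a log2 difference of 1.05, and the exon-based value gave 5.60 and 12.4, a log2 difference of 1.14. Vars was called under each of these 3 counts. Its mitochondrial counterpart Vars2 stood at 3.33 and 4.17 FPKM and was not called.

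Isoleucyl-tRNA synthetase was called on gene FPKM but not on RefSeq transcripts alone or on exons. Iars (chromosome 13, 49682130 to 49734267) stood at 7.25 FPKM in CD4SP (6.32 to 7.95) and 17.2 in CD8SP (13.4 to 18.6), a 2.37-fold difference. Its 34-exon RefSeq transcript was level, at 3.60 and 3.67 FPKM, and the exon-based values were 5.63 and 6.08. The CD8SP file holds short assembled transcripts of the gene, the strongest with 8 exons and 963 bases at 4.21 FPKM.

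Leucyl-tRNA synthetase, which also reports leucine to the mTORC1 growth pathway, was listed at 0 in CD4SP. Lars (chromosome 18, 42202298 to 42262237) stood at 15.8 FPKM in CD8SP (12.5 to 18.2), of which its RefSeq transcript made 4.99. In the CD4SP file all 18 transcripts on the strand of the gene were at 0, 4 of them with 32 exons, and 14 of the 18 carried the flag for full read support. The same file listed 53 single-exon fragments without strand within the gene, none of them at 0 and with a median of 0.588 FPKM, beside 51 such fragments with a median of 0.817 in CD8SP. The exact 0 can thus be a failed estimate, no fold is given, and the level of Lars in CD4SP is unknown from these files. Of all genes tested, 1.82% were likewise at 0 in 1 of the pools.

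The mitochondrial leucyl enzyme showed the widest disagreement between counts. Lars2 (chromosome 9, 123366927 to 123462675) stood at 19.2 FPKM in CD4SP (18.7 to 20) and 58.6 in CD8SP (57.1 to 60.9), a 3.05-fold difference. In CD8SP, 98.1% of that level was a single assembled transcript of 3 exons and 2139 bases at the 3′ end of the gene (chromosome 9, 123455361 to 123462865), at 57.5 FPKM. The 21-exon RefSeq transcript stood at 18.8 FPKM in CD4SP and at 1.103 in CD8SP, a log2 difference of -3.97 in the opposite direction. The exon-based values were 18.9 and 21.9 FPKM, a log2 difference of 0.21 that equals the median of all genes. The direction for Lars2 therefore depends on how its transcripts are counted.

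Mitochondrial threonyl-tRNA synthetase, Tars2 (chromosome 3, 95739974 to 95756365), stood at 2.49 FPKM in CD4SP (2.23 to 2.79) and 5.94 in CD8SP (5.53 to 6.42), a 2.38-fold difference. RefSeq transcripts alone gave a log2 difference of 1.05, and the exon-based values were 3.24 and 4.93 FPKM, a log2 difference of 0.59 that was not called. Counting assembled transcripts that also share an intron with another gene gave 5.36 and 8.72 FPKM, a log2 difference of 0.69 that was not called, where the call took 9.58% of all genes toward CD8SP and 4.94% toward CD4SP. The size of the difference thus ranged from 0.59 to 1.22 on the log2 scale, higher in CD8SP under each count. Its cytosolic counterpart Tars stood at 19.5 FPKM in CD4SP and at 13.7 in CD8SP, with intervals that overlap, while its exon-based log2 difference was 0.27 in the other direction.

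Just outside the threshold of 1, the log2 differences were 0.99 for Rars, 0.98 for Farsb and 0.87 for Cars2, and just inside it they were 1.22 for Tars2, 1.23 for Iars and 1.42 for Vars. Rars rested in part on a 2-exon assembled transcript of 420 bases, which made 11.7 of its 32.6 FPKM in CD8SP, and its exon-based log2 difference was 0.49. Cars2 stood at 3.86 and 7.16 FPKM, with 0.49 on the exon-based value. For Farsb the exon-based difference was 0.66, close to the 0.62 of Farsa, the alpha subunit of the same enzyme. Farsa stood at 8.62 FPKM in CD4SP and at 13.2 in CD8SP, intervals apart.

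**Figure D3:**
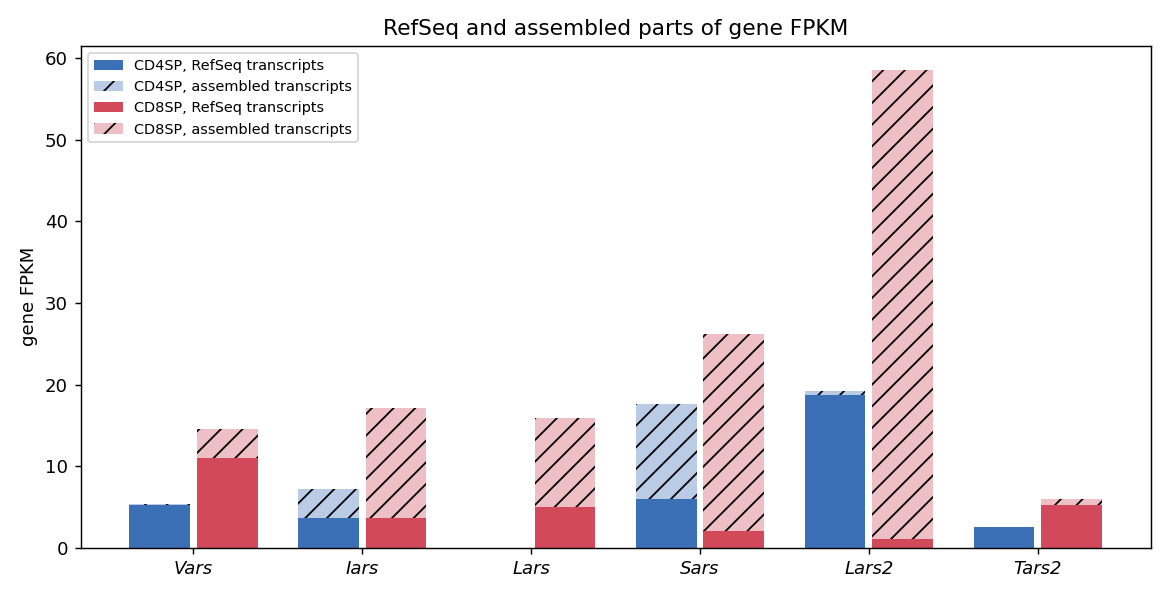
Gene FPKM of 6 synthetase genes in the CD4SP (blue) and CD8SP (red) pools, split into RefSeq transcripts (solid) and assembled transcripts (hatched); there are no error bars because each bar is 1 pooled value. The RefSeq part is nearly all of Vars and Tars2 in CD4SP, while in CD8SP assembled transcripts make most of Iars, Sars and Lars2.

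Glycyl- and lysyl-tRNA synthetases serve both compartments, and both genes were moderately higher in CD8SP. Gars (chromosome 6, 55038001 to 55079504) stood at 14.2 FPKM in CD4SP and at 23.6 in CD8SP, a log2 difference of 0.73 that was 0.74 on RefSeq transcripts alone and 0.71 on exons. Kars (chromosome 8, 111993439 to 112011354) stood at 16.4 and 25.3 FPKM, a log2 difference of 0.62 that was 0.63 and 0.61 on the other counts. Both differences were steady across counts and below the 2-fold threshold. The Kars values lie below their own summed intervals in both pools, as the Qars values do. Without Gars and Kars the cytosolic median was 0.51.

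Of the cytosolic enzymes, 8 form the multi-synthetase complex with the scaffold proteins AIMP1, AIMP2 and AIMP3, the last encoded by Eef1e1. Those 8 genes all had a ratio above 0, with a median log2 ratio of 0.47, and 2 were called, Iars and Lars, against the 10% of all genes called toward CD8SP. On exons 1 of the 8 was called, Lars, whose CD4SP level is unknown. The 12 cytosolic genes outside the complex had a median of 0.56, with 9 above 0 and 1 called. The 3 scaffold genes were not called, at 12.3 and 14.5 FPKM for Aimp1, 4.96 and 8.15 for Aimp2, and 8.44 and 11.7 for Eef1e1. On exons the medians were 0.32 in the complex, 0.46 outside it and 0.46 for the scaffolds. By catalytic fold, the cytosolic class I genes had a median of 0.64 and class II 0.51. Eprs, which holds both folds, was counted as class I. The order was the reverse on exons, at 0.36 and 0.46, and on RefSeq transcripts alone, at 0.39 and 0.535. The mitochondrial class I genes had 0.40 and class II 0.03, against 0.32 and 0.34 on exons and -0.007 and 0.216 on RefSeq transcripts alone.

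The remaining cytosolic genes differed by less. Sars stood at 17.6 FPKM in CD4SP and at 26.2 in CD8SP, a log2 difference of 0.57, while its RefSeq transcripts alone stood at 5.92 and 2.1 FPKM and were called in the other direction. Wars, the tryptophanyl enzyme that interferon raises, was level on gene FPKM, at 7.72 and 7.68. Its log2 difference was 0.37 on RefSeq transcripts alone and 0.31 on exons, not called on either. Aars had a log2 difference of -0.36 with intervals apart, but of -0.06 on exons. Of the mitochondrial genes, Yars2 (tyrosyl) stood at 1.996 and 3.58 FPKM, a log2 difference of 0.81 that reached 1.04 and was called on RefSeq transcripts alone. Aars2, Ears2, Fars2, Iars2 and Pars2 had ratios below 0, the lowest -0.43 for Ears2, and the intervals of all 5 overlapped. On exons the ratio was above 0 for Aars2 (0.40), Pars2 (0.34) and Iars2 (0.06), and on RefSeq transcripts alone it was 0.71 for Aars2.

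Splicing of the synthetase transcripts was measured as PSI, the percent of summed FPKM carried by transcripts with the longer or upstream form. Of 10 annotated events in 9 genes with at least 1 FPKM in both pools, 1 differed by 20 percentage points or more, against 17.3% of 2778 such events in all genes. That event was the Sars exon printed above, at 40.2% in CD4SP (range from the deposited bounds 35.9 to 44.7) and 2.95% in CD8SP (2.25 to 3.80), a difference of -37.2 points. On RefSeq transcripts alone, where 16.0% of all events were called, the same exon stood at 6.69% and 28.9%, a difference of 22.2 points in the opposite direction. In CD4SP the inclusion came mostly from an 11-exon assembled transcript of 5.77 FPKM. In CD8SP an 11-exon assembled transcript without the exon, at 18.5 FPKM, made 70.8% of the Sars level, so the direction rests on assembled transcripts. Nearby in Sars, retention of the intron at chromosome 3, 108427390 to 108427860, was 3.51% in CD4SP and 69.5% in CD8SP, and that of the intron at 108431621 to 108433017 was 44.0% and 10.6%.

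The Kars exon that selects the mitochondrial start was more often included in CD8SP, within a low range. It has 180 bases (chromosome 8, 112008207 to 112008386) and its PSI was 4.86% in CD4SP (3.22 to 5.95) and 10.1% in CD8SP (8.40 to 11.5), ranges that do not overlap. The 14-exon cytosolic transcript stood at 13.8 FPKM in CD4SP and at 20.2 in CD8SP, and the 15-exon mitochondrial transcript at 0.706 and 2.28. Cytosolic mRNA was thus the main form in both pools, and the difference of 5.27 points was far below the 20-point threshold. The other annotated events were below it too, the nearest being the first exon of Wars, at 83.7% and 100%, and a 3′ splice site of Yars2, at 84.5% and 100%.

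When assembled forms were counted as well, 416 events in 32 genes reached 1 FPKM and 56 were called (13.5%), below the 20.2% of all such events. With the requirement that both forms were above 0 in both pools, 10 of 113 were called, beside 12.7% of 22244 events in all genes. They lay in Cars2, Farsa, Nars2, Sars and Tars2. In Farsa, retention of the intron at chromosome 8, 84864151 to 84864292, was 68.8% in CD4SP and 14.9% in CD8SP, while that at 84867649 to 84867718 was 32.1% and 62.1%. That at 84864322 to 84864436 was 58.1% and 33.15%. The Farsa values thus differed in both directions within the gene, on summed levels of only 1.33 to 2.64 FPKM, near the floor of 1 FPKM.

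**Figure D4:**
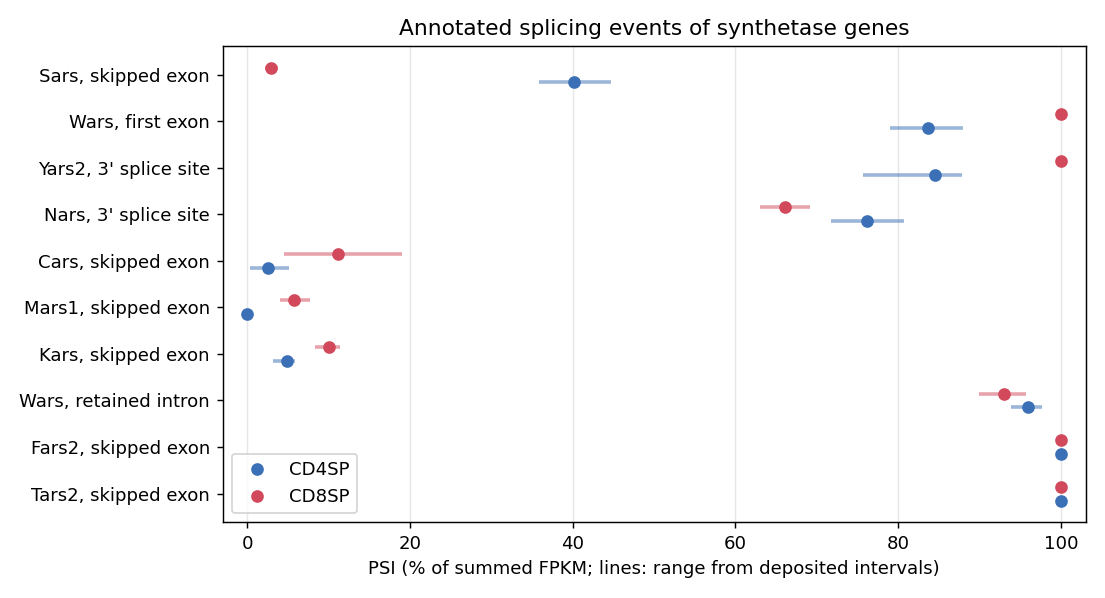
PSI in percent of the 10 annotated splicing events of synthetase genes in the CD4SP (blue) and CD8SP (red) pools, with lines for the range from the deposited intervals. The Sars exon is the 1 event that differs by over 20 points, and the Kars exon stays below 12% in both pools.

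The long reads held few synthetase isoforms. The CD4SP library had 7 of 8289 isoforms (0.0844%, exact 95% Clopper-Pearson interval 0.034 to 0.174), from 5 genes, and the CD8SP library had 16 of 9476 (0.169%, 0.0965 to 0.274), from 11 genes. The intervals overlap and cover counting error only. Isoforms are listed once each, so a count of them is not a level. Eprs, Kars, Nars2, Qars and Yars had an isoform in both libraries, Cars, Dars, Hars, Lars2, Wars2 and Yars2 in CD8SP alone, and 25 genes had none. Of the isoforms, 6 of 7 in CD4SP and 10 of 16 in CD8SP had more than 1 exon, against 33.2% and 35.3% of all isoforms. Full matches to an annotated transcript numbered 2 and 4, against 7.87% and 8.42% of all isoforms.

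Kars was the gene with its known forms read in full. In CD4SP its 14-exon isoform had 1983 bases and a predicted protein of 595 residues, and its 15-exon isoform had 2163 bases and 622 residues. CD8SP held both forms, at 1984 and 2165 bases, and a 16-exon annotated form of 2221 bases with 622 residues. Isoforms that match the annotated transcripts of both printed starts in every junction were thus in both libraries. For the 15-exon form the deposited protein prediction has 622 residues where the annotated coding sequence has 624 codons, so use of the printed start codon is not shown by it. Dars was read in full in CD8SP, as a 16-exon isoform of 2068 bases with 501 residues, together with a 17-exon isoform with a splice site outside the annotation that the deposited table marks as a target of nonsense-mediated decay. The 1 Lars2 isoform, in CD8SP, had a single exon of 2777 bases, and the genome after its 3′ end was 70% A. At 60% A or more, where an oligo-dT primer can bind the genome-encoded run, stood 1 of 7 isoforms in CD4SP and 6 of 16 in CD8SP. The share of all isoforms at that level is not given here.

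The genes that work with the synthetases give the setting. Calls in these lists are read against the 10% of all genes called toward CD8SP and the 4.76% toward CD4SP. Cytosolic elongation factors had a median log2 ratio of 0.68 over 5 genes, all above 0, and 1 was called, Eef1d, at 16.3 FPKM in CD4SP and at 73.5 in CD8SP but 7.33 and 12.8 on exons. Eef1a1, which delivers charged tRNA to the ribosome, stood at 595.9 and 955.3 FPKM and was not called. Of 76 mitochondrial ribosomal protein genes tested, 5 were called higher in CD8SP (Mrpl15, Mrpl27, Mrpl48, Mrpl58 and Mrps24) and 1 in CD4SP (Mrpl42), with 65 above 0 and a median of 0.41. In each direction the share called was below that of all genes. Mrpl15, Mrpl58 and Mrps24 fell below the threshold of 1 on exons, at log2 differences of 0.644, 0.822 and 0.963. Mrpl48 and Mrpl58 were not called after centring. Of the 5, Mrpl27 alone reached the threshold on gene FPKM, after centring and on exons. The call of Mrpl42, at 50.5 and 24.4 FPKM, had the other direction on exons, at 11.7 and 20.6. The 8 mitochondrial elongation and initiation factors tested had a median of 0.19 with 0 called. On exons the median of the 7 tested was 0.32, against 0.21 for all genes, with 0 called. Qrsl1, Gatb and Gatc, whose products convert glutamate on the mitochondrial glutamine tRNA and so stand in for a synthetase, had a median of -0.01 with 0 called, and 0 of the 4 tested partners that edit or trim tRNA were called.

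Most amino acid response genes were not called. Counts called in this list and among the transporters are read against the same 10% and 4.76% of all genes. Of 21 genes of the list with a value, 14 were tested. Those under 1 FPKM in both pools, Asns, Chac1 and Trib3 among them, were not. Of the 14, 2 were called higher in CD8SP, the serine and glycine enzymes Phgdh, at 1.63 and 10.9 FPKM, and Shmt2, at 7.85 and 22.2, and 0 in CD4SP. Ratios were below 0 for 3 of the 14, among them Ddit3, at 10.3 and 6.02 FPKM. The median log2 ratio of the 14 was 0.23 against 0.22 for all genes on gene FPKM, and 0.43 against 0.21 on exons, with 12 of 14 above 0 there. Atf4 itself stood at 29.4 and 33.5 FPKM. Of 13 amino acid transporter genes, Slc7a7, at 0.309 and 1.33 FPKM, and Slc43a2, at 3.53 and 9.32, were called higher in CD8SP, with a median of 0.42 over the list. On exons Slc7a7 was under 1 FPKM in both pools, at 0.108 and 0.372. There 1 of 12 transporter genes tested was called in CD8SP, against 7.52% of all genes, and their median was 0.32. Proliferation genes had a median of 1.52, far above that of the synthetases. That list moved in the same direction as the cytosolic synthetases, and its part in their difference was not tested.

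**Figure D5:**
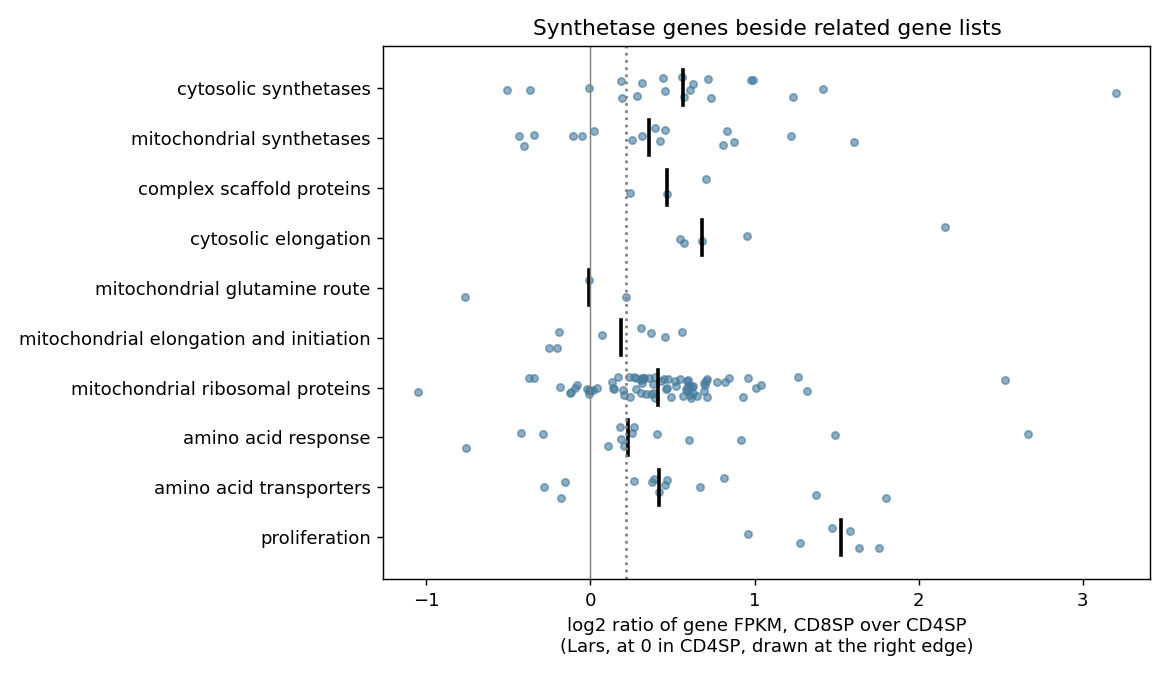
The log2 ratio of gene FPKM, CD8SP over CD4SP, for each gene (points) of the synthetase and related lists, with a black bar at each list's median and a dotted line at the median of all genes tested. Both synthetase lists lie to the right of the dotted line by a small margin, at 0.56 and 0.35, while the proliferation list is at 1.52.

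The promoters were searched for letters of the amino acid response element. The core TGATGNAA, the letters that ATF4 with C/EBP partners is known to bind, was searched on both strands, on the other strand as TTNCATCA, in the RefSeq windows (GRCm38.p6) from 250 bases before to 50 bases after each start. Windows matched 13 cytosolic and 14 mitochondrial genes, and the core occurred in 5 of the 13 (38.5%), in 0 of the 14, and in 1219 of 27025 genes with a window (4.5%). A 30-base stretch around it is shown for 3 of the 5 as examples, 5′ to 3′ on the strand of the gene with the core in capitals.
Gars (chr6:55037960-55037989, plus strand): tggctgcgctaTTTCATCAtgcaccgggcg
Iars (chr13:49682126-49682155, plus strand): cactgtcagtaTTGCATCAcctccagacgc
Tars (chr15:11399655-11399684, minus strand): caggagtcccgTTGCATCAgctggttagct
On gene FPKM the log2 differences of the 3 were 0.73 for Gars, 1.23 for Iars and -0.51 for Tars, and on exons they were 0.71, 0.11 and 0.27, so the sign of Tars turned with the count. The E-box CACGTG, a palindrome that MYC and related factors are known to bind, occurred in 4 of the 13 cytosolic windows (30.8%), among them those of Farsb, Iars and Tars, in 1 of the 14 mitochondrial ones, that of Ears2, and in 8.1% of all genes. A match describes letters in a window and is not evidence of binding, and no match says only that these letters are not in that window.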

How the data were processed

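The authors deposited, for each lineage, 1 short-read file of transcripts with FPKM and interval bounds, written by Cufflinks per the file headers, and 1 long-read table of isoforms with its structure and, per the file headers, the percent of A in the genome next to its 3′ end. Per the submitters' processing notes the build was GRCm38, and Cufflinks 2.1.1, TopHat2 2.0.14, RSEM 1.3.1, Trimmomatic, FastQC and GSNAP were used, in roles they do not state. Library depth was not given in the sources used here. The deposited FPKM pool 4 lane-labelled samples per lineage. A further deposited table of both libraries was not used here, since no file links its identifiers to genes. Long-read columns for read counts are empty, so isoforms were counted once each.

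RefSeq identifiers were matched to symbols through the GRCm38.p6 gene table (60007 of 61178 entries). Gene FPKM sums a gene's RefSeq transcripts and assembled spliced transcripts that share an intron with that gene only, and its interval sums the deposited bounds. Log2 ratios used a pseudocount of 0.1 FPKM, which understates changes of low genes. A gene was tested at 1 FPKM or more in either pool. The deposited FPKM lies outside its own summed interval for Farsb, Kars, Qars and Vars in CD4SP and for Kars, Qars, Tars and Yars2 in CD8SP, so intervals are an incomplete measure of error. Events were of 7 types, and a retained intron needed an exon reaching 10 bases beyond it on each side. Gene positions are from RefSeq on GRCm38.p6. Python 3.11.15, pandas 2.3.3, NumPy 2.4.6, SciPy 1.17.1 and matplotlib 3.10.9 were used, and the sums, calls and PSI were tested on simulated data. Genes named are those called, at 0 in a file or with a called event, the highest and lowest 3 of each compartment, the 3 nearest each side of the threshold, and called genes of related lists; others were chosen after their values were seen. Members and lists were chosen with earlier results of these data known. Alternatives varied the pseudocount, filter, scaling, transcripts counted, interval rule, event threshold and long-read filter. Genes with close paralogs can share reads. The promoter stretch of 1 gene with a motif match is not reported here.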

Additional observations from a re-analysis of the deposited data

How the results depend on the processing

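No paired analysis was possible because the lanes of a lineage are pooled in 1 file, and for the same reason no replicate could be left out. Of 349 values of single genes under the alternatives, 327 kept their sign and call, 6 lost the call, 1 gained it and 15, in 12 genes, changed sign. The filters, the omission of genes at 0 and the interval rule leave a ratio as it is. A pseudocount cannot turn its sign. Part of the 327 was therefore fixed in advance, and 327 of 349 is not a measure of stability. Of the sign changes, 7 came on RefSeq transcripts alone (Sars, Tars, Wars, Aars2, Cars2, Lars2 and Rars2), 5 on exons (Tars, Wars, Aars2, Iars2 and Pars2) and 3 after centring (Dars, Eprs and Nars2). A call was involved in 2 of them, on RefSeq transcripts alone, where the log2 ratio was -1.45 for Sars and -3.97 for Lars2, and there the PSI difference of the Sars exon became 22.2 points. With RefSeq transcripts alone, 1 cytosolic and 1 mitochondrial gene were called higher in CD4SP. The cytosolic median of 0.56 was 0.35 after centring, 0.43 on RefSeq transcripts alone and 0.40 on exons. The mitochondrial median of 0.35 was 0.14 after centring, 0.18 on RefSeq transcripts alone and 0.83 among genes at 5 FPKM or more. Mitochondrial calls in CD8SP numbered 1 with a pseudocount of 1 FPKM, 0 on exons, and 1 with transcripts shared between genes counted, an alternative chosen after seeing the data. Annotated events called numbered 4 at 10 points, and 56 with assembled forms. CD8SP long-read isoforms numbered 10 with more than 1 exon, and 10 with under 60% A. The causes were not tested.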

Other observations

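The long-read tables also list single-exon isoforms on the strand opposite to a synthetase gene, 4 in CD4SP and 5 in CD8SP. Those of Eprs, at 2198 bases, and Wars2, at 2647 and 2521 bases, were in both libraries, those of Yars2 and Fars2 in CD4SP alone, and those of Sars, Cars and Qars in CD8SP alone. In 8 of the 9 the genome after the 3′ end was at least 85% A, and in that of Qars it was 50%.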
